A study of Mus musculus with 4 samples.

Results

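The receptors for the Fc part of IgG, the adaptors that carry their signal and the first kinases of that signal were examined in the LICs of the murine MLL-AF9 model. The 9 genes were taken by name, with no threshold on their values, from the 27179 genes of the deposited expression table: *Fcgr1*, *Fcgr2b*, *Fcgr3*, *Fcgr4*, *Fcgrt*, *Fcer1g*, *Tyrobp*, *Syk* and *Lyn*. All 9 genes were in the table, and all 9 passed the filter on low values (a mean of at least 0.5 FPKM, fragments normalised to transcript length and to the mapped reads of the library), as did 13230 genes in all. *Fcgr1* passed it only through the CD274-null libraries.

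The 4 RNA-sequencing libraries came from LICs (leukemia-initiating cells, enriched as Mac-1+/c-Kit+ cells of leukemic bone marrow), and 2 were labelled wild type (WT) and 2 CD274-/- (CD274-null). Every library was labelled C57BL/6, bone marrow and 6 weeks of age. CD274 is PD-L1, a surface ligand of the T cell receptor PD-1. By the study's methods, the leukemias of both genotypes were made by infecting Lin- fetal liver cells with the MSCV-MLL-AF9-IRES-YFP retrovirus and transplanting them into lethally irradiated C57BL/6 mice, so that the marrow could still hold host cells. The labels speak of sorted cells and the library methods of tissue as the source of RNA. The sources do not say which round of transplantation was sequenced, whether YFP was used in the sort, or whether libraries of one group came from separate mice, and the p-values below measure only the spread between these libraries.

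Receptors for the Fc part of IgG let myeloid cells read antibody that coats a target. The activating receptors *Fcgr1*, *Fcgr3* and *Fcgr4* have short tails and signal through the common gamma chain, *Fcer1g*, whose ITAM (immunoreceptor tyrosine-based activation motif) is phosphorylated by kinases of the Src family such as *Lyn* and then binds *Syk*. *Tyrobp*, or DAP12, is the other ITAM adaptor of myeloid cells and serves TREM and other receptors. *Fcgr2b* carries an inhibitory motif, the ITIM, which recruits the phosphatase SHIP-1, and *Fcgrt* is the heavy chain of FcRn, which works inside the cell and returns IgG to the surface.

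The signaling motifs are short, and they are shown because they set the activating adaptors apart from the inhibitory receptor. They were located in the coding transcripts of GENCODE M21 on GRCm38 by translating each and searching for a tyrosine, any 2 residues, leucine or isoleucine, a spacer of 6 to 12 residues, and the same 4 positions again (ITAM). For the ITIM, the search was for isoleucine, valine, leucine or serine, any residue, tyrosine, any 2 residues, and isoleucine, valine or leucine. Capitals mark the tyrosine and leucine codons of the ITAMs and the tyrosine codon of the ITIM, and all sequences are written 5′ to 3′ on the coding strand.
Fcer1g ITAM: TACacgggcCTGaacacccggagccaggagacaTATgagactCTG
Tyrobp ITAM: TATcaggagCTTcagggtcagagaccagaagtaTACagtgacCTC
Fcgr2b ITIM: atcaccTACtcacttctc

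The *Fcer1g* ITAM occupied codons 65 to 79 of the 86 codons of Fcer1g-201, over exon 4 (chr1:171230067-171230072) and exon 5 (chr1:171229889-171229927), on the minus strand. The *Tyrobp* ITAM occupied codons 92 to 106 of the 114 codons of Tyrobp-201, over exon 4 (chr7:30415670-30415675) and exon 5 (chr7:30417344-30417382), on the plus strand. Both ITAMs were thus 45 bases long and divided at the same place between 2 exons. Tyrobp-202 held the same match, and another coding model of *Fcer1g*, Fcer1g-203 with 92 codons, held 0 matches. The *Fcgr2b* ITIM lay at codons 317 to 322 of Fcgr2b-201, in exon 8 (chr1:170961071-170961088, minus strand), and the other 3 coding models of the gene held the same 18 bases.

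*Fcgr2b* (chr1:170960558-170976071), *Fcgr4* (chr1:171018926-171029761), *Fcgr3* (chr1:171051169-171065915) and *Fcer1g* (chr1:171229572-171234349) follow each other in this order on chromosome 1, within 273.8 kb. *Fcgr3* and *Fcgr2b* resemble each other closely enough to affect counting with reads that averaged 50 bases. The longest stretch shared without a mismatch had 129 bases, and it is printed because a short read from it fits both genes.
Fcgr3 and Fcgr2b, exons 3 and 4: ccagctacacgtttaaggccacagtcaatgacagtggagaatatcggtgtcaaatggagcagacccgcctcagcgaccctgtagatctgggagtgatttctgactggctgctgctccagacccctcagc

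In *Fcgr3* this stretch lay at chr1:171057691-171057792 and chr1:171054167-171054193, and in *Fcgr2b* at chr1:170967980-170968081 and chr1:170966674-170966700, all on the minus strand. Of the 50-base windows of *Fcgr3* transcripts, 10.2% also occurred in *Fcgr2b*, and of those of *Fcgr2b*, 4.48% occurred in *Fcgr3*. Over any other gene and either strand, 10.7% of the *Fcgr2b* windows were shared. The values of this pair are uncertain to the extent that such reads were shared. *Lyn* (chr4:3678068-3791612) shared 15.7% of its windows with the pseudogene Gm11787 and 5.78% with the lincRNA Gm26857 on the opposite strand. *Fcgr2b* exons overlap an antisense gene, Gm38204, by up to 155 bases, and the sources do not state whether counting used strand. *Fcgr1* (chr3:96282909-96293969), *Fcgr4*, *Fcgrt* (chr7:45092993-45103822), *Fcer1g*, *Tyrobp* (chr7:30413782-30417582) and *Syk* (chr13:52582610-52648792) shared 0 windows with any other gene.

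The libraries differed in makeup beyond genotype, and their depth, as reads recovered on genes, was 8453137 to 11049275. *Cd274* itself was low and did not separate the groups: it was at 2.80 and 0.945 FPKM in WT replicates 1 and 2, and at 1.43 and 2.29 FPKM in CD274-null replicates 1 and 2, so directions below rest on the labels alone. Which exons the null allele lacks is not given in the sources used here. The c-Kit gene, *Kit*, was at 6.59 FPKM in WT replicate 1 and at 16.2 to 19.5 FPKM in the other 3 libraries, and the Mac-1 gene, *Itgam*, was at 100.2 to 174 FPKM. The summed FPKM of 10 neutrophil genes was highest in WT replicate 1 (43469) and lowest in WT replicate 2 (8788), with 18343 and 31405 in the CD274-null libraries. In bulk RNA, fewer cells of a type and less RNA per cell cannot be told apart.

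The LICs of both genotypes carried abundant mRNA for the adaptors and for *Fcgr3* and *Fcgr2b*, and almost none for *Fcgr1*. On the FPKM scale, which is per length, *Tyrobp* was the highest of the 9 genes in every library, *Fcer1g* the next and *Fcgr3* the third. *Fcgr2b* and *Syk* changed places, with *Syk* above in WT replicate 1 and *Fcgr2b* above in the other 3 libraries, and the range of *Fcgr2b* over libraries met that of *Fcgr3*. *Lyn*, *Fcgr4*, *Fcgrt* and *Fcgr1* followed in this order in all 4 libraries, and the ranges of *Fcgr4* (10.4 to 28.1 FPKM) and *Fcgrt* (1.74 to 8.36 FPKM) did not overlap.

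**Figure D1:**
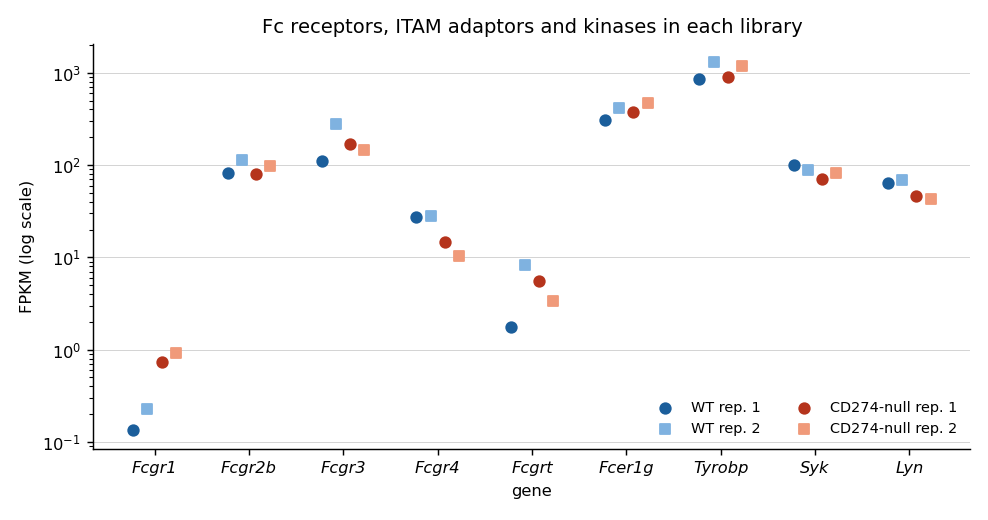
FPKM of the 9 genes (log axis) in each of the 4 libraries, 1 point per library, with WT in blue and CD274-null in red. *Fcgr4*, *Syk* and *Lyn* have both CD274-null points below both WT points, *Fcgr1* has them above, and the points of *Fcgr2b*, *Fcgr3*, *Fcgrt*, *Fcer1g* and *Tyrobp* are intermixed.

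*Fcgr4* was the one gene of the 9 that met the study's thresholds for candidate genes (unadjusted p under 0.01 and more than 1.5-fold). It encodes FcγRIV, an activating receptor of monocytes, macrophages and neutrophils that binds IgG2 subclasses. *Fcgr4* was at 27.3 and 28.1 FPKM in WT replicates 1 and 2 and at 14.8 and 10.4 FPKM in CD274-null replicates 1 and 2. Both CD274-null libraries lay below both WT libraries, and the CD274-null mean of 12.6 ± 3.11 (SD, n = 2) was 45.6% of the WT mean of 27.7 ± 0.575 (SD, n = 2). These values rest on 395, 358, 164 and 130 recovered reads, whose 95% Poisson intervals reached from 24.7 to 31.2 FPKM in WT and from 8.73 to 17.3 FPKM in CD274-null, so the groups were also apart by counting error alone.

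On the log2(FPKM + 0.5) scale *Fcgr4* fell by 1.12 (SE 0.26), with an unadjusted p of 0.00417 and an adjusted p of 0.255 by limma with Benjamini-Hochberg adjustment over all genes tested. The adjusted p stayed between 0.205 and 0.954 over the 16 alternative settings. Without one library at a time the log2 fold change was -1.37 to -0.88, and the unadjusted p was 0.0117 to 0.0385, so the gene missed the threshold of 0.01 each time. The neutrophil sum was 4.95 times as high in WT replicate 1 as in WT replicate 2, while *Fcgr4* differed 1.03-fold between them. The monocyte and macrophage genes are given below, and the part of neutrophils, monocytes and macrophages in this difference was not tested.

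*Fcgr1* encodes FcγRI, the high-affinity IgG receptor of monocytes and macrophages. It was at 0.134 and 0.228 FPKM in WT replicates 1 and 2 and at 0.742 and 0.931 FPKM in CD274-null replicates 1 and 2, from 4, 6, 17 and 24 reads. Both CD274-null libraries were above both WT libraries, at a level near the bottom of the genes tested. The recovered reads per unit of depth stood at 4.74 times those in WT (95% interval 2.34 to 10.6, from 41 against 10 reads, for counting error only). The log2 fold change was 0.97 (SE 0.44), which the pseudocount shrinks at this level, with an adjusted p of 0.393 in limma. Since the gene passed the filter only through the group where it is high, its direction supports nothing here.

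*Fcgr3* encodes FcγRIII, the low-affinity activating receptor and the most abundant of the IgG receptors in these libraries. It was at 110 and 278 FPKM in WT replicates 1 and 2 and at 169 and 144 FPKM in CD274-null replicates 1 and 2. The WT libraries lay on either side of the CD274-null libraries and differed 2.54-fold from each other, against 1.17-fold between the CD274-null libraries. The log2 fold change was -0.16 (SE 0.43, adjusted p 0.899 in limma). Its sign turned with the library left out, from -0.83 without WT replicate 1 to 0.51 without WT replicate 2.

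*Fcgr2b*, the inhibitory receptor, was at 82.4 and 114 FPKM in WT replicates 1 and 2 and at 80.7 and 98.5 FPKM in CD274-null replicates 1 and 2. The groups overlapped, and the means of 98.2 ± 22.3 and 89.6 ± 12.6 (SD, n = 2 each) differed by less than the spread within WT. The log2 fold change was -0.12 (SE 0.25, adjusted p 0.863 in limma) and ran from -0.35 to 0.11 with a library left out. *Fcgr2b* is also the main IgG receptor of B cells, whose other genes were low here. Of 12 B cell genes, *Cd79b* alone was well above the rest, at 12.8, 36.2, 35.6 and 37.4 FPKM, and the other 11 summed to 1.29 and 2.56 FPKM in WT and 4.61 and 4.61 FPKM in CD274-null.

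*Fcgrt* was at 1.74 and 8.36 FPKM in WT replicates 1 and 2 and at 5.53 and 3.35 FPKM in CD274-null replicates 1 and 2. The WT libraries enclosed the others and differed 4.80-fold, more than counting error, since their 95% Poisson intervals of 1.21 to 2.42 and 7.07 to 9.82 FPKM did not meet. No difference between the groups could be drawn from these 4 values (log2 fold change 0.11, SE 0.66, adjusted p 0.955 in limma).

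The adaptors did not separate the genotypes. *Fcer1g* was at 311 and 414 FPKM in WT replicates 1 and 2 and at 375 and 467 FPKM in CD274-null replicates 1 and 2, with overlapping groups and a log2 fold change of 0.22 (SE 0.27, adjusted p 0.745 in limma). That value ran from 0.01 without WT replicate 1 to 0.43 without WT replicate 2. *Tyrobp* was at 864 and 1295 FPKM in WT replicates 1 and 2 and at 898 and 1176 FPKM in CD274-null replicates 1 and 2. The groups again overlapped, with a log2 fold change of -0.04 (SE 0.34, adjusted p 0.969 in limma) that ran from -0.33 to 0.25 with a library left out. Both adaptors stood in the top 1.01% of genes above 0 in every library.

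The kinases lay below WT in both CD274-null libraries, without passing the thresholds. *Lyn* starts the signal by phosphorylating the motifs, and in myeloid cells also serves the inhibitory receptors. It was at 64.1 and 68.5 FPKM in WT replicates 1 and 2 and at 45.9 and 43.3 FPKM in CD274-null replicates 1 and 2. The groups did not overlap, each was tight (66.3 ± 3.17 and 44.6 ± 1.89 FPKM, SD, n = 2), and the CD274-null mean was 67.3% of the WT mean. The log2 fold change was -0.57 (SE 0.20, unadjusted p 0.0271, adjusted p 0.327 in limma) and ran from -0.61 to -0.52 with a library left out.

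*Syk*, which binds the phosphorylated ITAM and passes the signal on, was at 101 and 88.3 FPKM in WT replicates 1 and 2 and at 70.3 and 81.3 FPKM in CD274-null replicates 1 and 2. The lower WT library and the higher CD274-null library were 6.98 FPKM apart. The log2 fold change was -0.32 (SE 0.21, adjusted p 0.532 in limma), and it stayed between -0.42 and -0.21 with a library left out.

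**Figure D2:**
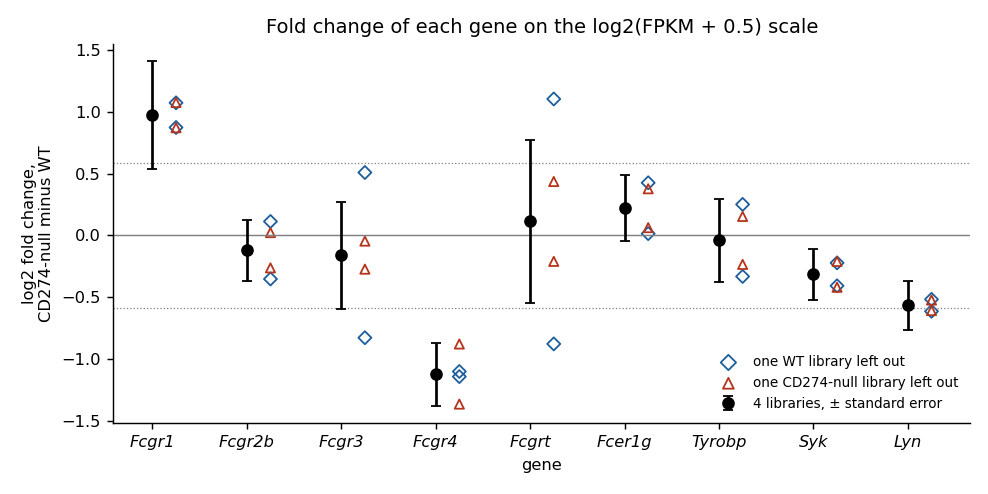
Log2 fold change of each gene, CD274-null minus WT, on the log2(FPKM + 0.5) scale: black points with the limma standard error for all 4 libraries, and open symbols with 1 library left out. Dotted lines mark a 1.5-fold difference. *Fcgr4* is at -1.12 and *Lyn* at -0.57 with open symbols close by, whereas those of *Fcgr3* (-0.83 to 0.51) and *Fcgrt* (-0.88 to 1.10) lie on both sides of 0.

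Over the 9 genes, 1 was a candidate for lower expression, where 1.24% of all genes tested were, and 0 were candidates for higher expression, where 2.39% were. Both CD274-null libraries lay below both WT libraries for 3 genes (*Fcgr4*, *Syk* and *Lyn*), against 21.8% of all genes, and above them for 1 (*Fcgr1*), against 25.6%. An unadjusted p under 0.05 was reached by 2 of the 9 genes (*Fcgr4* and *Lyn*), against 13.7% of all genes, and an adjusted p under 0.05 by 0 of the 9, against 0.0756% of all genes (10 of 13230). The median log2 fold change was -0.12 over the 9 genes and 0.01 over all genes tested.

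The composition of the IgG-binding receptors gives the share of activating and inhibitory receptor RNA within a library, free of its depth. Receptor protein and signaling were not measured in these libraries. *Fcgr3* made up 49.9% and 66.1% of the summed FPKM of *Fcgr1*, *Fcgr2b*, *Fcgr3* and *Fcgr4* in WT replicates 1 and 2, and 63.7% and 56.8% in CD274-null replicates 1 and 2. *Fcgr2b* made up 37.6%, 27.1%, 30.4% and 38.7% in the same order. *Fcgr4* made up 12.4% and 6.69% in WT, against 5.59% and 4.11% in CD274-null, so its share was lower in both CD274-null libraries, and *Fcgr1* stayed under 0.4% in all 4.

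The ratio of the activating receptors to *Fcgr2b* was 1.66 and 2.69 in the WT libraries, against 2.29 and 1.58 in the CD274-null libraries. The ratio of *Fcer1g* to the activating receptors it serves was 2.27 and 1.35 in WT, against 2.03 and 2.998 in CD274-null. The ratio of *Lyn* to *Syk* was 0.637 and 0.776 in WT, against 0.654 and 0.532 in CD274-null. The groups overlapped in each of these 3 ratios, and a two-sided exact permutation test of the log2 ratio gave p = 0.667 for each, where 2 libraries against 2 cannot go below 0.333. The ratio of *Tyrobp* to *Fcer1g*, computed after the values were seen and not tested, was 2.77 and 3.13 in WT, against 2.39 and 2.52 in CD274-null.

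**Figure D3:**
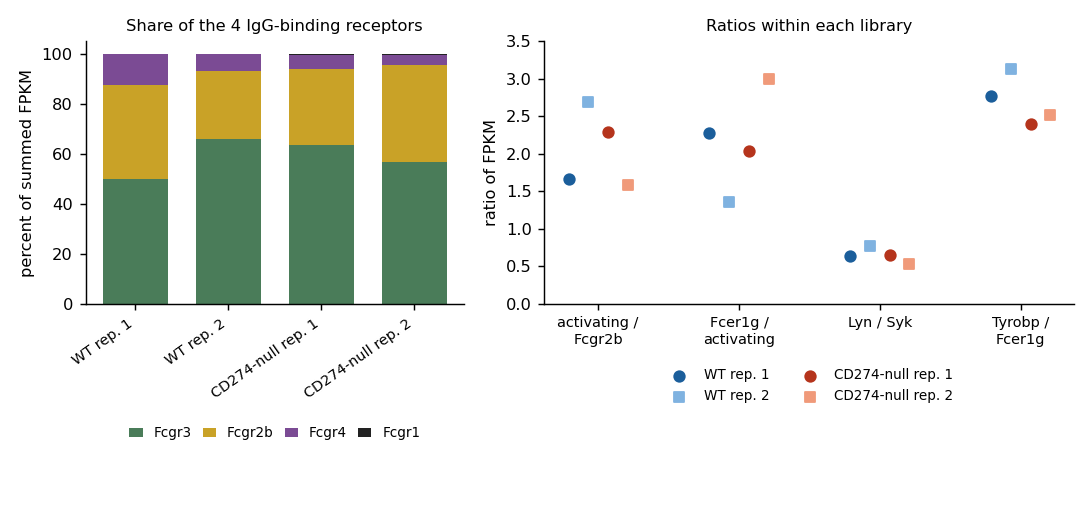
Left, percent of the summed FPKM of the 4 IgG-binding receptors taken by each receptor in each library; right, ratios of FPKM within each library, where activating is the sum of *Fcgr1*, *Fcgr3* and *Fcgr4*. *Fcgr3* and *Fcgr2b* fill most of each bar, the *Fcgr4* band is narrower in the CD274-null libraries (5.59% and 4.11%), and the first 3 ratios are intermixed between the groups.

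The 5 lists of genes around this pathway held 112 genes, of which 85 were tested. Candidates numbered 1 lower and 0 higher, which was 1.18% of those tested, against 3.63% of all genes tested. The median log2 fold change was -0.02. An unadjusted p under 0.05 was reached by 12 genes (14.1%, against 13.7% of all genes tested). Both CD274-null libraries lay above both WT libraries for 18 of the 85 genes (21.2%, against 25.6% of all genes) and below them for 23 (27.1%, against 21.8%). Without WT replicate 2, 12 of the 85 genes were candidates (5 higher and 7 lower, 14.1% against 4.79% of all genes), and without each of the other libraries 0 to 3 were. The one candidate was *Cbl*, a ubiquitin ligase that marks activated receptors and *Syk* for degradation. *Cbl* was at 31.2 and 32.8 FPKM in WT replicates 1 and 2 and at 12.4 and 9.60 FPKM in CD274-null replicates 1 and 2, with a log2 fold change of -1.51 (SE 0.24, adjusted p 0.165 in limma). Its groups were far apart against their own spread, and the value stayed between -1.68 and -1.33 with a library left out. *Cbl* was no longer a candidate without moderation or without CD274-null replicate 2, where its unadjusted p was 0.0118.

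Of 12 other Fc receptor genes, 3 were tested and 0 were candidates. *Trim21*, the receptor for antibody inside the cell, was the most abundant, at 7.38 and 9.45 FPKM in WT and 9.66 and 8.29 FPKM in CD274-null. *Ms4a2*, the beta chain of the IgE receptor, was at 0.583 to 2.80 FPKM and *Fcrl1* at 0.169 to 0.941 FPKM. Both CD274-null libraries were above both WT libraries in each. *Fcrl1*, with a WT mean of 0.325 FPKM, passed the filter only through the CD274-null libraries, so its direction supports nothing here. The IgE-binding chain, *Fcer1a*, and the polymeric immunoglobulin receptor, *Pigr*, were at 0 in all 4 libraries.

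Of 31 ITAM-coupled receptors and adaptors, 20 were tested and 0 were candidates, with a median log2 fold change of 0.07. *Trem3*, a partner of *Tyrobp*, was the most abundant, at 249 and 117 FPKM in WT and 113 and 133 FPKM in CD274-null, followed by *Hcst* (DAP10), at 85.9 and 85.1 against 65.5 and 67.9 FPKM, and by *Cd79b*. The highest and the lowest log2 fold change on this list were those of *Clec7a* and *Clec4e*. *Clec7a* (Dectin-1) was at 5.35 and 17.3 FPKM in WT and 22.9 and 55.0 FPKM in CD274-null (log2 fold change 1.82, SE 0.61, adjusted p 0.314 in limma). *Clec4e* (Mincle), whose chain pairs with *Fcer1g*, was at 26.6 and 14.3 FPKM in WT and 9.34 and 3.47 FPKM in CD274-null (log2 fold change -1.68, SE 0.51, adjusted p 0.296 in limma). Groups did not overlap in either, and the spread within each group was large. Both were chosen after their values were seen.

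Of 10 Src and Syk family kinases and their regulators, 5 were tested and 0 were candidates, with a median log2 fold change of -0.27. *Fgr*, another Src kinase of myeloid cells, was highest in WT replicate 1, at 54.0 FPKM, and at 18.9 to 33.5 FPKM in the other 3 libraries. Its groups overlapped, unlike those of *Lyn*. *Csk*, which restrains the Src kinases, was at 69.5 to 79.2 FPKM in all 4 libraries. *Zap70*, the relative of *Syk* in T cells, was under 0.3 FPKM throughout.

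Of 35 genes downstream of *Syk*, 34 were tested, 0 were candidates for higher and 1 (*Cbl*) for lower expression, with a median log2 fold change of -0.07. *Rac2*, a GTPase of phagocytosis, was at 502 and 427 FPKM in WT and 503 and 518 FPKM in CD274-null. *Card9*, an adaptor to NF-kappaB, was at 248 and 211 against 267 and 282 FPKM, and *Prkcd* at 78.5 and 169 against 149 and 179 FPKM. The CD274-null libraries thus lay above WT for *Rac2* and *Card9* by margins within the spread of WT. None of these 3 passed a threshold. *Blnk*, the scaffold that B cells use after *Syk*, was under 0.3 FPKM in all 4 libraries.

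Of 24 inhibitory receptors and phosphatases, 23 were tested and 0 were candidates, with a median log2 fold change of 0.06. *Clec12a*, an ITIM receptor of myeloid cells, was at 317 and 402 FPKM in WT and 434 and 543 FPKM in CD274-null, and the adaptor *Dok3* at 159 and 287 against 274 and 334 FPKM. *Ptpn6* (SHP-1) was at 134 and 273 against 171 and 202 FPKM, and *Inpp5d* (SHIP-1), the phosphatase that *Fcgr2b* recruits, at 39.8 and 72.1 against 55.8 and 61.2 FPKM, both with overlapping groups. The ITIM receptors *Cd300lf*, *Pirb* and *Lilrb4a*, chosen after their values were seen, stood out in 1 library. They were at 116, 105 and 145 FPKM in WT replicate 1, the library with the highest neutrophil sum, and at 18.6 to 34.9 FPKM in the other 3 libraries.

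**Figure D4:**
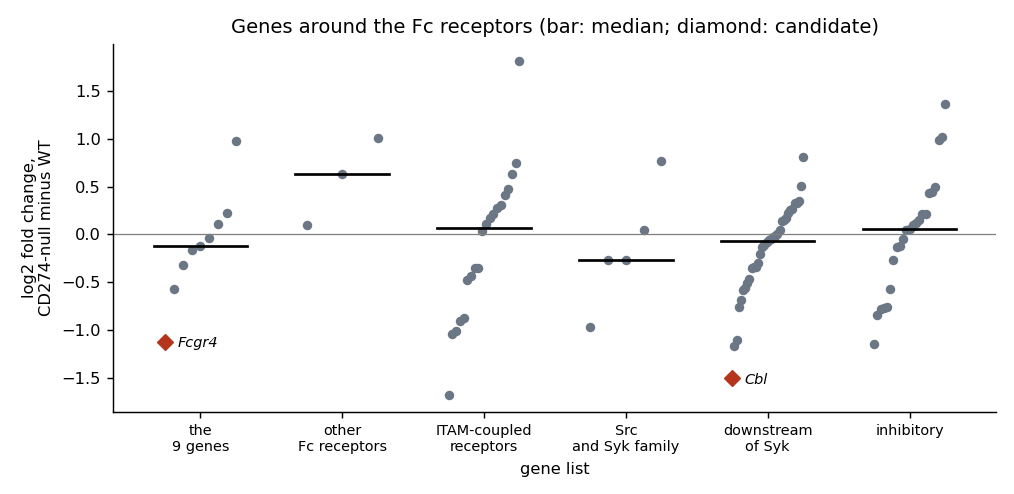
Log2 fold change, CD274-null minus WT, on the log2(FPKM + 0.5) scale, for the tested genes among the 9 and among the 5 surrounding lists, 1 point per gene, with a bar at each list's median and diamonds for candidate genes. The medians are -0.12, 0.63, 0.07, -0.27, -0.07 and 0.06 from left to right, and *Fcgr4* and *Cbl* are the 2 candidates. The median of 0.63 is the value of *Fcrl1*, the middle of 3 tested genes. *Fcrl1* passed the filter only through the CD274-null libraries.

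Among 93 genes of the 9 and of these lists, the profile over the 4 libraries was compared by the Euclidean distance of centred log2(FPKM + 0.5) values, as a description. The genes nearest to *Fcgr2b* were *Tyrobp* (0.14), *Lcp2* (0.25) and *Grb2* (0.27). Those nearest to *Fcer1g* were *Pira2* (0.22), *Malt1* (0.23) and *Clec12a* (0.23), and those nearest to *Syk* were *Hcst* (0.17), *Plcg1* (0.19) and *Plcg2* (0.21). With 4 libraries, many genes can share such a profile.

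Antibody RNA, most of it not for IgG heavy chains, was far higher in the CD274-null libraries, while the groups overlapped for the summed IgG-binding receptors. The 13 antibody genes summed to 23.4 and 22.7 FPKM in WT replicates 1 and 2 and to 410 and 478 FPKM in CD274-null replicates 1 and 2. The 4 IgG-binding receptors summed to 219 and 420 FPKM in WT and to 265 and 254 FPKM in CD274-null. Of 10 antibody genes tested, 7 were candidates for higher expression, against 2.39% of all genes, but 7 of the 10, among them 4 of the 7 candidates (*Ighg2b*, *Iglc1*, *Iglc2* and *Jchain*), passed the filter only through the CD274-null libraries, so that their difference carries no support. The other 3 candidates were *Igkc*, *Ighm* and *Igha*.

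*Igkc*, the constant part of the kappa light chain, was at 8.64 and 7.98 FPKM in WT and at 214 and 189 FPKM in CD274-null, with a log2 fold change of 4.52 (SE 0.20, adjusted p 0.00245 in limma). *Jchain*, which joins IgA and IgM into polymers, was at 0.370 and 0.514 FPKM in WT and at 12.3 and 10.5 FPKM in CD274-null, with a log2 fold change of 3.65 (SE 0.33, adjusted p 0.0369 in limma), but its WT mean was under the filter. Over the alternatives fitted, the limma adjusted p was under 0.05 in 9 of 14 for *Igkc* (0.00112 to 0.517) and in 4 of 16 for *Jchain* (0.0299 to 0.517). With a library left out, the log2 fold change ran from 4.43 to 4.60 for *Igkc* and from 3.54 to 3.77 for *Jchain*. The *Jchain* values carry no support here, since the gene passed the filter only through the CD274-null libraries. Most heavy chain RNA came from classes that FcγRs do not bind: *Ighm* was at 9.04 and 14.1 FPKM in WT and 49.1 and 162 FPKM in CD274-null, and *Igha* at 5.08 and 0 against 114 and 102 FPKM. *Ighm* was not a candidate without WT replicate 1 or CD274-null replicate 2, nor *Igha* without either CD274-null library.

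The heavy chains of IgG itself, the ligand of the FcγRs, were low. *Ighg1*, *Ighg2b*, *Ighg2c* and *Ighg3* were listed at 0 in both WT libraries. *Ighg2b* was at 5.92 and 3.29 FPKM in CD274-null replicates 1 and 2, *Ighg2c* at 2.25 and 0.199 FPKM, *Ighg1* at 0 and 2.72 FPKM, and *Ighg3* at 0.0942 and 0.0836 FPKM. *Ighg2b* was thus the one IgG heavy chain above 3 FPKM in both CD274-null libraries, but few reads lie behind these values. The recovered reads, known up to a common factor, were 8 and 5 for *Ighg2b* in CD274-null replicates 1 and 2. For *Ighg2c* they were 10 and 1. The order of the IgG heavy chains by FPKM is therefore uncertain, as the gene lengths behind FPKM are not given. Of the rest, *Iglc1* was at 0.270 and 0 FPKM in WT and 8.83 and 3.45 FPKM in CD274-null. *Iglc2* and *Iglc3* were listed at 0 in WT and were at 2.497 and 1.27 FPKM and at 0.357 and 2.53 FPKM in CD274-null. *Ighd* and *Ighe* stayed under 0.9 FPKM in all libraries.

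These are RNA values. IgG protein on the surface of the LICs or held by their receptors was not measured, so whether more antibody was bound in the CD274-null libraries was not tested. The other genes of plasma cells, the main source of antibody, were low: *Sdc1*, *Prdm1*, *Irf4*, *Mzb1*, *Tnfrsf17* and *Derl3* summed to 1.07 and 0.825 FPKM in WT and to 2.99 and 3.15 FPKM in CD274-null, with *Mzb1* listed at 0 in both WT libraries. The sum was higher in both CD274-null libraries, as antibody RNA was. The 11 B cell genes other than *Cd79b* were also higher in both, at 1.29 and 2.56 FPKM summed in WT and 4.61 and 4.61 FPKM in CD274-null. The part of plasma cells or B cells in the antibody values was not tested. *Xbp1*, which myeloid cells also express, was at 66.8 to 177 FPKM and was highest in WT replicate 1.

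**Figure D5:**
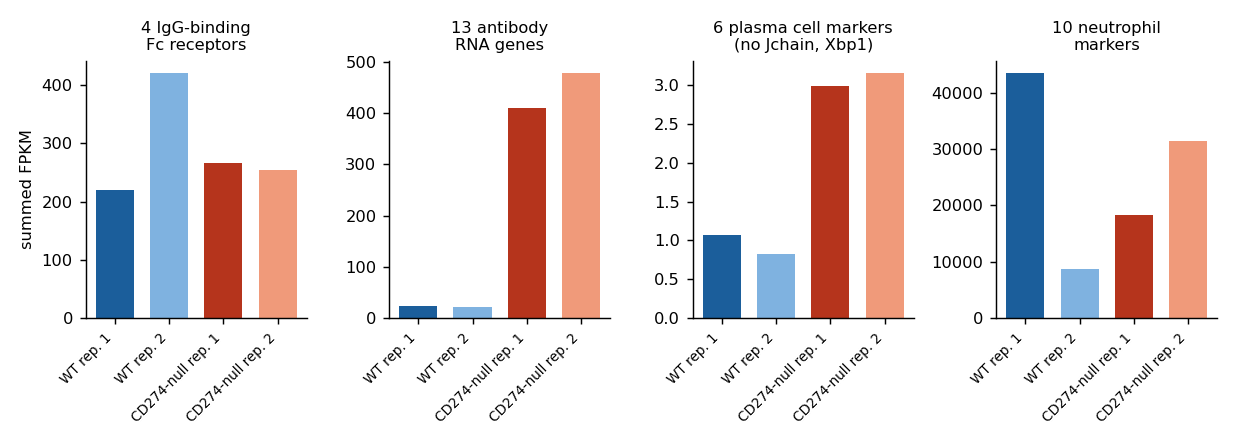
Summed FPKM in each library of the 4 IgG-binding receptors, of 13 antibody genes, of 6 plasma cell genes and of 10 neutrophil genes, with a linear axis from 0 for each panel. Antibody RNA is at 23.4 and 22.7 FPKM in the WT libraries and at 410 and 478 FPKM in the CD274-null libraries, whereas the receptor and neutrophil sums of the CD274-null libraries lie between those of the WT libraries.

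Cells that carry these receptors in normal marrow include monocytes, macrophages, neutrophils, mast cells and basophils. The 14 monocyte and macrophage genes summed to 575 and 973 FPKM in WT and to 960 and 1091 FPKM in CD274-null. *Ly6c2* was the most abundant, at 335 and 693 against 713 and 740 FPKM. *Cd68*, of phagocyte lysosomes, was a candidate for higher expression, at 51.5 and 58.1 FPKM in WT and 86.9 and 113 FPKM in CD274-null (log2 fold change 0.85, SE 0.23, adjusted p 0.274 in limma). *Vcam1*, an adhesion molecule, was one for lower expression, at 117 and 92.3 against 53.7 and 59.8 FPKM (log2 fold change -0.87, SE 0.22, adjusted p 0.272 in limma). *Cd68* was a candidate in 4 of the 16 alternatives and *Vcam1* in 8, and the call of *Cd68* was lost without any library in turn and that of *Vcam1* without any but WT replicate 2. The 2 candidates lay in opposite directions, 1 of 12 tested genes each way. Of all genes tested, 2.39% were candidates for higher and 1.24% for lower expression. The part of such cells in the *Fcgr4* values was not tested.

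The most abundant neutrophil genes were *S100a9* (3590 to 16802 FPKM), *S100a8* (3043 to 14524 FPKM) and *Camp* (964 to 5918 FPKM), all lowest in WT replicate 2. In that library *Fcgr2b*, *Fcgr3*, *Fcgr4*, *Fcgrt*, *Tyrobp* and *Lyn* were highest, while *Fcgr1*, *Fcer1g* and *Syk* were not. Of 8 mast cell and basophil genes, *Fcer1a*, *Tpsb2* and *Cma1* were at 0 in all 4 libraries, while *Mcpt8* was at 10.3 to 37.2 FPKM, *Gata2* at 1.89 to 42.3 FPKM and *Cpa3* at 6.49 to 43.1 FPKM. Among 8 genes of LIC identity, *Hoxa9* was at 71.3 to 75.8 FPKM in all libraries, and *Mpo*, of promyelocytes, was a candidate for higher expression, at 444 and 403 FPKM in WT and 1427 and 925 FPKM in CD274-null (log2 fold change 1.44, SE 0.31, adjusted p 0.251 in limma), a call made in 10 of the 16 alternatives and lost without any library in turn.

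The 12 partners of the receptors in complement and phagocytosis gave 9 tested genes, with a median log2 fold change of -0.29. Of these, 1 was a candidate for lower expression, against 1.24% of all genes tested, and 0 for higher, against 2.39%. The candidate was *Cd47*, the signal on a cell that restrains phagocytes through SIRPα. *Cd47* was at 278 and 276 FPKM in WT replicates 1 and 2 and at 143 and 150 FPKM in CD274-null replicates 1 and 2. Both groups were tight and apart, with a log2 fold change of -0.92 (SE 0.21, adjusted p 0.255 in limma), and the call was made in 10 of the 16 alternatives and lost without any library in turn (unadjusted p 0.0106 to 0.0364). Its receptor *Sirpa* was at 78.9 and 90.9 against 85.0 and 91.5 FPKM, with overlapping groups. The integrin chains of complement receptor 3, *Itgb2* and *Itgam*, were the other most abundant members, with *Itgb2* at 213 and 194 FPKM in WT and 138 and 175 FPKM in CD274-null, and no candidate among them.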

How the data were processed

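The deposited table holds, for each gene, the FPKM that the authors computed in each of the 4 libraries, on a linear scale. The submitters' processing notes name CASAVA 1.8.2, TopHat2 2.0.12 and the build GRCm38; the program, gene lengths and strand setting behind FPKM are not given in the sources used here. Libraries were assigned by their labels. Genes, given by NCBI gene number, were named from RefSeq (25275 of 27179 had a symbol), and positions are those of GRCm38.

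FPKM values of a gene stood in ratios of whole reads (17083 of 17083 genes above 0 in at least 2 libraries, within 0.0005 of a read), which gave relative depth and reads up to a common factor. Genes averaging 0.5 FPKM or more (13230) were log2-transformed after adding 0.5 and compared between genotypes in limma 3.58.1 (R 4.3.3), using moderated variances with a mean trend, no covariate, and p-values adjusted by Benjamini-Hochberg. A candidate gene met the study's cutoffs, an unadjusted p below 0.01 and a change of more than 1.5-fold. Ratios were compared by exact permutation (scipy 1.17.1, Python 3.11.15). The fit was tested on simulated data.

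The members and gene lists were chosen with earlier results of these data known. The text names all 9 genes, *Cd274*, every antibody gene, each list's candidates and its 3 most abundant genes, and the 3 nearest profiles of *Fcgr2b*, *Fcer1g* and *Syk*; genes outside this rule were chosen after their values were seen or named as markers. A gene that this rule names is left out of the text. The 16 alternatives were other pseudocounts (1 and 0.1), a filter that was absent or raised to 5 FPKM, quantile normalization, equal medians, moderation without the trend or none, the replicate number as a block, limma's voom on recovered reads, a GC correction with and without the block, and leaving out each library.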

Additional observations from a re-analysis of the deposited data

How the results depend on the processing

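Of 142 alternative values of the 9 genes, 126 kept direction and side of the candidate thresholds. *Fcgr4* (-1.12) missed the threshold of p under 0.01 without the filter (p 0.0179) and without moderation (p 0.0442), and without each library (-1.37 to -0.88). *Fcgr1* (0.97) passed it without the filter (p 0.00829 by limma). Fold changes near 0 turned: *Fcgr2b* (-0.35 to 0.11, 0.02 without CD274-null replicate 1), *Fcgr3* (-0.83 to 0.51) and *Tyrobp* (-0.33 to 0.25, 0.15 without CD274-null replicate 1) by leaving out a library, and *Fcgrt* by that (-0.88 to 1.10) and by the GC correction (-0.050, also with the block). *Fcgr1* and *Fcgrt* could not be fitted at a mean FPKM of at least 5, and antibody genes other than *Jchain* had no GC value.

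Candidates over all genes numbered 480 (316 higher, 164 lower). They were 170 without moderation and 301 with the GC correction and the block, and 147 to 634 without a library (235 without CD274-null replicate 1, 147 without CD274-null replicate 2). The split was 253 higher and 210 lower with quantile normalization, 247 and 200 with equal medians, and 166 and 166 with the GC correction; log2 fold change and GC content had a Spearman rho of 0.265 over 11435 genes. The 9 genes gave 0 candidates without moderation and 0 without any library in turn. The 5 pathway lists gave 1 candidate, but 2 at a mean FPKM of at least 5, without trend, with voom or with the GC correction, 0 without moderation, and 0 to 12 without a library (12 without WT replicate 2, 14.1% of those tested against 4.79% of all genes). The antibody genes gave 7 candidates, but 3 without the filter, 4 at a mean FPKM of at least 5 and 2 without moderation.

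Libraries with the same replicate number shared only a number (correlation of deviations -0.02). With the replicate block, candidates numbered 526 over all genes, 1 of the 9 genes (*Fcgr4*), 7 antibody genes and 5 pathway genes (4 with the GC correction as well), and no call of the 9 genes changed.

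With 2 libraries a group, an exact permutation test cannot go below p = 0.333, and reads limit *Fcgr1* (4 to 24 per library) and *Fcgrt* (35 to 148).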

Other observations

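Genes of other cell types of the marrow were low, with exceptions. *Nkg7*, of cytotoxic granules, was a candidate for higher expression, at 32.4 and 11.7 FPKM in WT and 67.2 and 85.7 FPKM in CD274-null (log2 fold change 1.93, SE 0.46, adjusted p 0.269 in limma), a call made in 9 of the 16 alternatives and lost without either CD274-null library, with equal medians and with the GC correction among others, while the other 11 natural killer and T cell genes, *Cd3d* and *Cd3g* among them, all had a mean below 0.5 FPKM and were not tested. *Bst2*, also an interferon target, was at 36.4 to 48.6 FPKM, and the dendritic cell genes *Itgax* and *Cd209a* were at 0.344 to 2.10 FPKM and 0 to 1.02 FPKM. The platelet genes *Itga2b*, *Gp9* and *Clec1b* were at most at 10.1, 3.71 and 1.37 FPKM, each in CD274-null replicate 2, and *Pf4* and *Ppbp* were listed at 0. The erythroid genes *Hba-a1*, *Hba-a2* and *Hbb-bs* were at 18.1, 9.42 and 26.9 FPKM in WT replicate 2 and at 0 to 3.01 FPKM in the other 3 libraries.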
